A study of Homo sapiens with 6 samples.

Results

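CTSZ and 9 other lysosomal cathepsins were followed in NCI-H292, an established line of human lung mucoepidermoid carcinoma. The 10 genes, CTSZ, CTSA, CTSB, CTSC, CTSD, CTSH, CTSK, CTSL, CTSS and CTSV, were taken by symbol and are 10 of the 19775 genes that the array names singly. They are represented by 20 of its 54613 probe sets other than controls. CTSZ was chosen by its signal, which differed between the groups in these same arrays, and the other cathepsins were added as its relatives with that result known. The differences between the groups are therefore given for all 10 genes as a description, with no p-value, and calls are only counted beside their share over the whole array. The CT45A1 overexpression group held 3 arrays of NCI-H292 carrying a stable CT45A1-Venus construct, in which Venus is a fluorescent protein. In the CT45A1 negative group, also 3 arrays, the stable construct was Venus alone. CT45A1 belongs to the cancer/testis antigens, which are transcribed mainly in testis. Both groups grew in DMEM with serum, and the labels do not say whether a transfected line was 1 clone or a pool, or whether the 3 replicates were separate cultures. The spread behind each p-value below is thus that between arrays and may be technical only.

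Cathepsins are the proteases of the lysosome, where they break down proteins delivered by endocytosis and autophagy. Most belong to the papain family of cysteine proteases, are made as inactive precursors, travel from the Golgi by the mannose 6-phosphate route and become active when their propeptide is cut off at acid pH. Cystatins hold in check those that escape, and secreted cathepsins of tumour cells are known for degrading extracellular matrix. CTSZ, also called cathepsin X, is a carboxypeptidase of this family whose propeptide carries an integrin-binding motif.

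The labelled cell type was checked first. All 8 epithelial markers, among them EPCAM, CDH1 and KRT18, were above the array median on every array. Of 7 blood cell markers measured, only CD14 was above it on at least 3 arrays, and PTPRC and CSF1R, which mark all leukocytes and macrophages, were below it on all 6. Of 4 endothelial markers, CDH5 and PECAM1 each had a probe set above it on all 6 arrays, and none of the 4 fibroblast markers was above it on at least 3. KRT18 was lower with CT45A1, by -0.25 (SE 0.06, limma adjusted p = 0.0367), and no other marker tested was called. The summed signal of the epithelial list was 77484 to 77903 with CT45A1 and 78144 to 83643 without it, that of the blood cell list 449 to 569 and 296 to 490.1, that of the endothelial list 676 to 711 and 456 to 579.6, and that of the fibroblast list 260.3 to 360.5 and 213 to 303. The part of the higher endothelial sum and of the KRT18 difference in the results below was not tested.

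The values are linear MAS5 signals, 1 for each probe set on each array, brought to a common mean on every array, and a difference is the mean log2 signal of the overexpression arrays minus that of the negative arrays. A probe set was kept when its signal exceeded the median of the array on at least 3 of the 6 arrays. This held for 19 of the 20 cathepsin probe sets and for all 10 genes. The array median itself was 79.2 to 83.3 with CT45A1 and 72.6 to 75.6 without it. A call means an adjusted p under 0.05 in limma, over all 27618 kept probe sets. Over these, 892 were called, 522 higher and 370 lower with CT45A1, which is 3.23% of them. After centring each array on its median the split was 387 higher and 2588 lower.

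CTSZ signal was 3.63-fold lower in the cells with CT45A1. At probe set 210042_s_at overexpression replicates 1, 2 and 3 gave signals of 716, 671 and 674, and negative replicates 1, 2 and 3 gave 2483, 2428 and 2576. The groups lay far apart, and within each group the arrays were close together. The mean log2 signal was 9.42 ± 0.05 (SD, n = 3) with CT45A1 and 11.28 ± 0.04 without it, a fall of 1.86 (SE 0.08). All 6 arrays were well above their median at this probe set, so the lower level in the overexpression cells was still a measured one. Leaving out each array in turn gave differences from -1.89 to -1.84.

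The other CTSZ probe set, 212562_s_at, did not show this difference. Its signal was 70.7, 68.8 and 57.2 with CT45A1 and 104, 68.7 and 42.9 without it. The groups overlapped, the negative arrays were spread wide, and 1 of 6 arrays, negative replicate 1, exceeded its median, so the probe set was not kept. Without the filter its difference was -0.05 with a 95% interval of -0.97 to 0.88, which does not reach the difference at 210042_s_at. The statement that CTSZ was lower thus rests on 1 of its 2 probe sets. Both end in _s_at, a suffix that marks probes shared by several transcripts, and the probes' sequences were not used here.

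**Figure D1:**
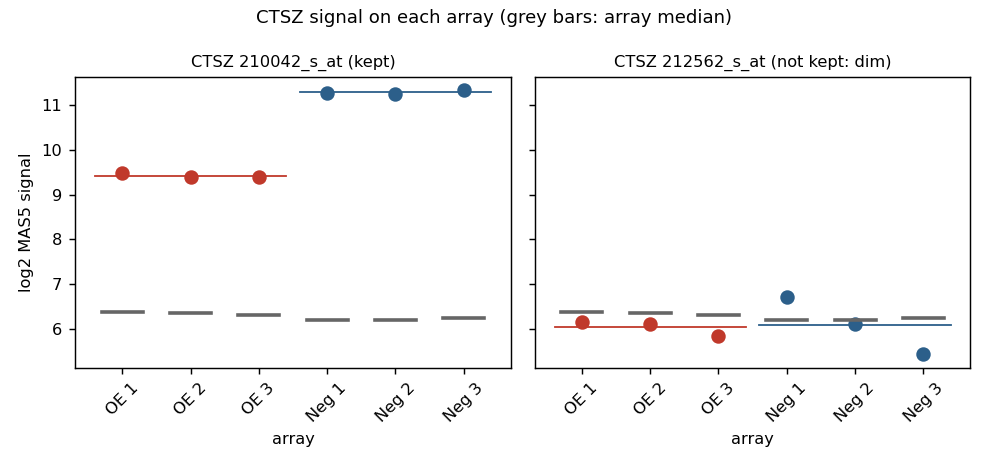
Log2 MAS5 signal of both CTSZ probe sets on each of the 6 arrays (OE: CT45A1 overexpression; Neg: CT45A1 negative). Points are arrays, coloured lines are group means and grey bars are the median of each array. At 210042_s_at the group means are 9.42 and 11.28, while at 212562_s_at the points lie around the array median and the groups overlap.

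The sequence before the CTSZ start is shown because the lysosomal regulators TFEB, TFE3 and MITF are known to bind an E-box, CACGTG, before many lysosomal genes. RefSeq (GRCh38.p14) gave promoter windows, 250 bases before to 50 after the gene start, for 7 of the 10 genes. The stretches printed end before the start, and E-boxes are in capitals.
CTSZ, chr20:59007255-59007504, minus strand: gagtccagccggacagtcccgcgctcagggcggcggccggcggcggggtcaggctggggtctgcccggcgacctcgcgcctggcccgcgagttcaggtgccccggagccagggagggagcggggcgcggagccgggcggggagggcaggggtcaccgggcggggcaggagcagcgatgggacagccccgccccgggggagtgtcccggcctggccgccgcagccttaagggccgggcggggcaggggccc
CTSA, chr20:45891273-45891334, plus strand: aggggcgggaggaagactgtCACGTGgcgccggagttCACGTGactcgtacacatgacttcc
CTSD, chr11:1763949-1763994, minus strand: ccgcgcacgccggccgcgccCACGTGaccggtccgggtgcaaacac
The CTSZ stretch held no E-box and was 81.2% G and C, against a median of 58.0% over all promoters. The shorter stretches of CTSA and CTSD were 61.3% and 78.3% G and C, and those of CTSL and CTSV, printed below, 77.8% and 82.5%. CTSA held 2 E-boxes, whose first bases lay 42 and 25 bases before the start, and CTSD held 1, 47 bases before it. On either strand, CACGTG was found in 2 of the 7 cathepsin windows and in 7.43% of all 27305. The longer lysosomal CLEAR motif, which contains CACGTG, the interferon-stimulated response element (ISRE) and the AP-1 motif TGANTCA were in none of the 7, and in 0.381%, 3.65% and 7.76% of all windows. These are matches of letters and say nothing of what binds there.

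CTSH and CTSC, exopeptidases like CTSZ, had differences within 0.5 on the log2 scale at every probe set. CTSH, an aminopeptidase, gave 7503, 7738 and 7781 with CT45A1 and 6331, 6580 and 7607 without it. The overexpression arrays were alike, and negative replicate 3 reached their level while the other negative arrays lay below. The difference was 0.17 (SE 0.07). CTSC, dipeptidyl peptidase I, which activates the serine proteases of granulocytes, was measured by 4 kept probe sets. The brightest, 201487_at, gave 4254, 4203 and 3948 with CT45A1 and 3925, 4007 and 3971 without it, a difference of 0.06 (SE 0.06), and the groups overlapped. The 3 others did not run one way. At 225647_s_at the difference was 0.27 (SE 0.10) with overlapping groups, and at 225646_at it was -0.24 (SE 0.12), also with overlap. At 231234_at, which lay near the array median, the signal was 81.3, 112 and 116 with CT45A1 and 71.3, 81.3 and 68.3 without it, a difference of 0.47 (SE 0.30) with the lowest overexpression and the highest negative array nearly equal.

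CTSB, an endopeptidase that also trims dipeptides from the carboxyl end, had 5 kept probe sets with differences from -0.28 to 0.04. The brightest, 200839_s_at, gave 5715, 5212 and 5397 with CT45A1 and 5631, 5582 and 6057 without it. The arrays overlapped, and the difference was -0.08 (SE 0.07). At 227961_at the signal was 826, 760.2 and 931 with CT45A1 and 935, 1033 and 1074 without it, a difference of -0.28 (SE 0.10). There the highest overexpression array lay just under the lowest negative one. The remaining 3 overlapped between the groups, at differences of 0.04, -0.07 and -0.06.

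CTSV and CTSL are close relatives, and at both the overexpression arrays all lay above the negative ones. CTSV, an elastin-degrading endopeptidase known mainly from thymus and testis, gave 5483, 5308 and 4520.1 with CT45A1 and 3863, 4067 and 2819 without it. Negative replicate 3 was far below the other negative arrays, and the groups did not overlap. The mean log2 signal was 12.31 ± 0.15 (SD, n = 3) and 11.79 ± 0.29, a difference of 0.52 (SE 0.13), or 0.36 without negative replicate 3. This was the largest difference upward among the cathepsins. CTSL, a widely expressed endopeptidase, gave 5046, 5621 and 4717 with CT45A1 and 4392, 4536 and 4413 without it, a difference of 0.20 (SE 0.07). The negative arrays were tightly grouped and all lay under the overexpression arrays.

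The start regions of these relatives are shown because they share a run of 23 bases, the longest that the 250 bases before both starts have in common, here in capitals.
CTSL, chr9:87726003-87726065, plus strand: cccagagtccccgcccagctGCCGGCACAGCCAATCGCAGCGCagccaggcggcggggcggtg
CTSV, chr9:97039186-97039248, minus strand: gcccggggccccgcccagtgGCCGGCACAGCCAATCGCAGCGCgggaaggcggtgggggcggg
The run lay within the last 116 bases before the CTSL start and within the last 106 before the CTSV start. No value here links it to the signals of the 2 genes.

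CTSS, an endopeptidase that trims the invariant chain of MHC class II, differed between its 3 probe sets. At 202902_s_at, the brightest, it gave 638, 688 and 508 with CT45A1 and 559.7, 470.3 and 575 without it, a difference of 0.19 (SE 0.14) with overlapping groups. At 202901_x_at it gave 276, 315 and 238 with CT45A1 and 191, 201 and 203 without it, a difference of 0.47 (SE 0.16), and the groups were apart. At 232617_at it gave 152, 216 and 208 against 247, 176 and 256, a difference of -0.23 (SE 0.21), and the groups overlapped. Leaving out single arrays gave 0.10 to 0.31 at 202902_s_at and -0.41 to -0.08 at 232617_at. CTSK, the collagenase of osteoclasts, gave 149.6, 167 and 159 with CT45A1 and 126, 169 and 158 without it, which overlap, at a difference of 0.08 (SE 0.20).

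CTSD and CTSA, outside the papain family, had small differences above 0. CTSD, an aspartic protease and a main endopeptidase of the lysosome, gave 635, 724 and 840.4 with CT45A1 and 571, 524 and 766 without it. Its arrays overlapped through negative replicate 3, and the difference was 0.25 (SE 0.16). It was 0.41 without negative replicate 3, 0.14 without negative replicate 2 and 0.15 without overexpression replicate 3. CTSA, a serine carboxypeptidase that shields the glycosidases NEU1 and GLB1 in a complex, gave 2168, 2445 and 2464 with CT45A1 and 2008, 2015 and 2155 without it. The lowest overexpression array lay just above the highest negative one, and the difference was 0.19 (SE 0.08).

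**Figure D2:**
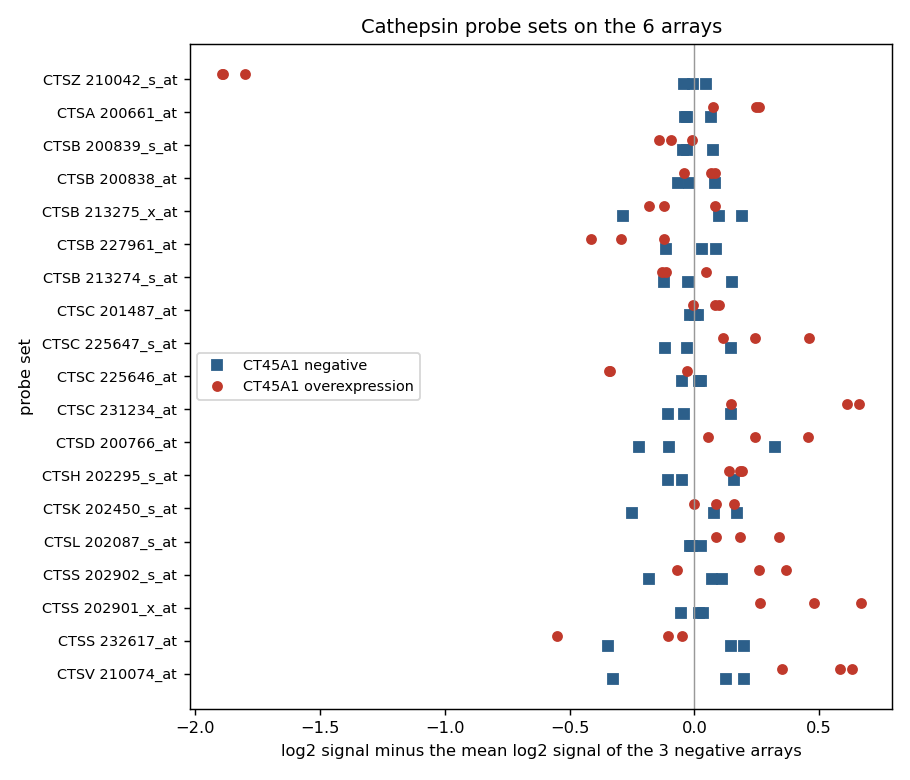
Log2 signal of the 19 kept cathepsin probe sets on each array, minus the mean log2 signal of the 3 negative arrays at that probe set. Circles are overexpression arrays and squares negative arrays. CTSZ lies near -1.86, and the group differences of all other probe sets lie between -0.28 and 0.52.

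Counted over the cathepsins, 1 of 19 kept probe sets was called, 210042_s_at of CTSZ, against 3.23% of all kept probe sets, or 1.34% called lower. Since the genes were chosen with this contrast known, nothing is read from that count. Of the 18 others, 12 lay above 0 and 6 below, with a median of 0.13, against 0.03 over all kept probe sets. Centring each array on its median moved the median of all kept probe sets by -0.145, and 9 of the 19 then lay above 0. The groups did not overlap at 6 of the 18, 5 higher and 1 lower, and at CTSZ, against 26.6% of all kept probe sets, 15.2% higher and 11.4% lower. A missed call does not show that a gene was unchanged: the 95% interval ran from 0.24 to 0.81 for CTSV, from -0.09 to 0.60 for CTSD and from -0.36 to 0.53 for CTSK.

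**Figure D3:**
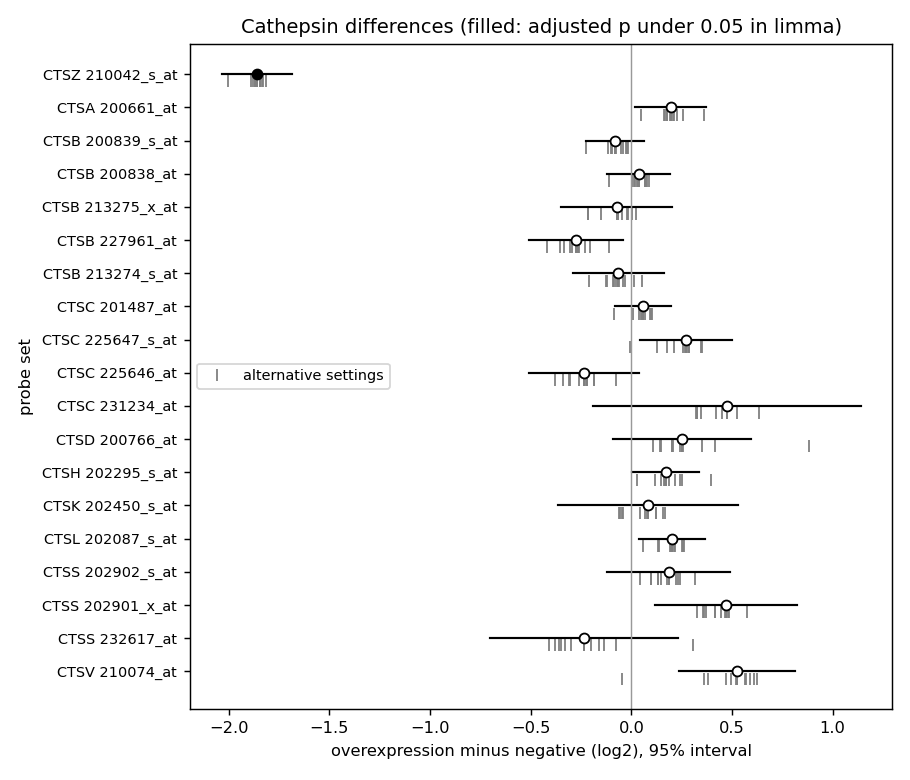
Difference between overexpression and negative arrays (log2) for the 19 kept cathepsin probe sets, with limma's 95% interval as a line. Filled points were called and open points were not. Grey ticks give the difference under each alternative setting. The ticks farthest from their points are those of CTSD at 0.88, CTSV at -0.05 and CTSS 232617_at at 0.31, all fitted with the actin ratio described next.

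The ratio of actin signal at the 3' end to that at the 5' end, which reads RNA integrity and how far labelling ran, moved with the groups. It was 1.42 to 1.55 with CT45A1 and 1.64 to 1.91 without it, with the highest value on negative replicate 3. The same ratio of GAPDH was 0.97 to 1.04 with CT45A1 and 1.05 to 1.18 without it, so it too separated the groups. With log2 of the actin ratio added to the fit, the CTSZ difference was -1.83, CTSV went to -0.05, CTSD to 0.88, CTSH to 0.40 and CTSS at 232617_at to 0.31. For CTSZ the -1.83 stands beside -1.86 without the ratio in the fit. As the ratio separated the groups, its part in these differences cannot be told apart from that of CT45A1.

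The proteins that act on cathepsins were described from lists of 110 genes, of which 90 were tested by their brightest kept probe set. Of these, 1 rose, 1 fell and 88 did not pass limma, against 3.83% called among all 11895 genes tested, 1.94% higher and 1.89% lower. Their median difference was 0.02, against 0.01 over all genes. An unadjusted p under 0.05 was reached by 15 of the 90, against 20.9% of all genes. The gene that rose was LGMN, legumain, an asparaginyl endopeptidase that cuts several cathepsins into their mature chains. Its signal was 1041, 928 and 1010 with CT45A1 and 801, 717 and 725 without it. All overexpression arrays lay above all negative ones, and LGMN rose by 0.41 on the log2 scale (SE 0.09, limma adjusted p = 0.0424, n = 3 per group). The call was lost without any one array, with an adjusted p of 0.0665 to 0.143, and after quantile normalization (adjusted p = 0.0641). After centring on the array median the difference was 0.26 (adjusted p = 0.107). The call was present in 6 of 18 alternatives.

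Of the other 16 sorting and processing genes none passed at the brightest probe set. At another kept probe set, 217543_s_at, MBTPS1, the protease that cuts the precursor of the GlcNAc-phosphotransferase, rose by 0.61 (SE 0.13, limma adjusted p over all probe sets = 0.0355), against 0.31 at its brightest (SE 0.09, limma adjusted p = 0.111). The mannose 6-phosphate receptors M6PR and IGF2R, which carry cathepsins to the lysosome, differed by 0.04 (SE 0.13) and 0.08 (SE 0.10), and GNPTAB, which makes their tag, by 0.15 (SE 0.07). At other kept probe sets, none called, IGF2R differed by -0.27 (SE 0.11) and -0.30 (SE 0.33) and GNPTAB by -0.08 (SE 0.31). The list's median was 0.07. Among the 7 cystatins and serpins tested none passed in limma and 0 had an unadjusted p under 0.05, with a median of -0.10. The smallest p values were those of CSTB and CST3, cystatins B and C, at -0.10 (SE 0.07, limma adjusted p = 0.420) and -0.12 (SE 0.08, limma adjusted p = 0.438).

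The gene that fell was ATP6V1D, a subunit of the vacuolar proton pump that acidifies lysosomes. Its signal was 6300.01, 6081 and 5722 with CT45A1 and 7467, 8106 and 7517 without it. The groups were clearly apart, and ATP6V1D fell by 0.35 on the log2 scale (SE 0.06, limma adjusted p = 0.0195, n = 3 per group). Its other kept probe sets differed by -0.24, 0.03 and -0.39, and with their mean the difference was -0.24 (limma adjusted p = 0.164). The call was also lost without overexpression replicate 2, negative replicate 1 or negative replicate 2, with adjusted p of 0.0831, 0.0637 and 0.0715, and it was present in 13 of 18 alternatives. The 13 other pump genes did not pass, and the list's median was 0.01.

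None of the other 5 lysosomal lists had a call in limma at the brightest probe sets. The 97 other kept probe sets of 47 list genes held 3 calls, against 3.23% called among all kept probe sets. These shares are alike, so nothing is read from the count. All 3 calls were higher, 1 each for MBTPS1, PSAP and LAPTM4B, which are given for being called there. Of 25 glycosidases, sulfatases, lipases and other hydrolases, 17 lay above 0 and 8 below, with a median of 0.09, and 5 had an unadjusted p under 0.05. NEU1, the sialidase that CTSA protects, differed by 0.35 (SE 0.10, limma adjusted p = 0.0918), and TPP1, an aminopeptidase, by -0.25 (SE 0.08, limma adjusted p = 0.115). The other kept probe sets of TPP1 differed by 0.29, -0.33 and 0.02, and the mean over all of them by -0.07. Of 14 lysosomal membrane proteins and activators 1 had an unadjusted p under 0.05, PSAP, the precursor of the saposins, at 0.28 (SE 0.08, limma adjusted p = 0.0918). Its other kept probe set, 200866_s_at, rose by 0.49 (SE 0.08, limma adjusted p over all probe sets = 0.0142), the mean of both was called as well, at 0.39 (limma adjusted p = 0.0331), and PSAP was called in 5 of 17 alternatives. LAPTM4B, a lysosomal membrane protein, rose by 0.35 at 1554679_a_at (SE 0.08, limma adjusted p over all probe sets = 0.0390), while its brightest probe set differed by 0.00023 (SE 0.06). LAMP2, a lysosomal membrane glycoprotein, had the next smallest p, at 0.17 (SE 0.08, limma adjusted p = 0.246). Of 10 MiT/TFE factors and regulators 0 had an unadjusted p under 0.05, and the list's median was -0.07. TFEB, a master regulator of lysosomal genes, differed by 0.39 (SE 0.30), TFE3 by -0.07 (SE 0.10) and MITF by -0.18 (SE 0.10). At another kept probe set, not called, MITF differed by 0.09 (SE 0.10) and TFE3 by -0.14 (SE 0.14). FLCN and RRAGD, which control where TFEB resides, had the smallest p, at -0.66 (SE 0.30, limma adjusted p = 0.244) and 0.79 (SE 0.38, limma adjusted p = 0.263). Single arrays moved both by over 1.5 times: without overexpression replicate 3 FLCN differed by -0.33, and without negative replicate 2 RRAGD differed by 0.28. Of 3 other cathepsins tested, CTSO differed by 0.32 (SE 0.13, limma adjusted p = 0.188), CTSE by -0.51 (SE 0.51) and CTSF by 0.02 (SE 0.26). Of these 3, 1 had an unadjusted p under 0.05, and CTSG and CTSW were not kept.

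**Figure D4:**
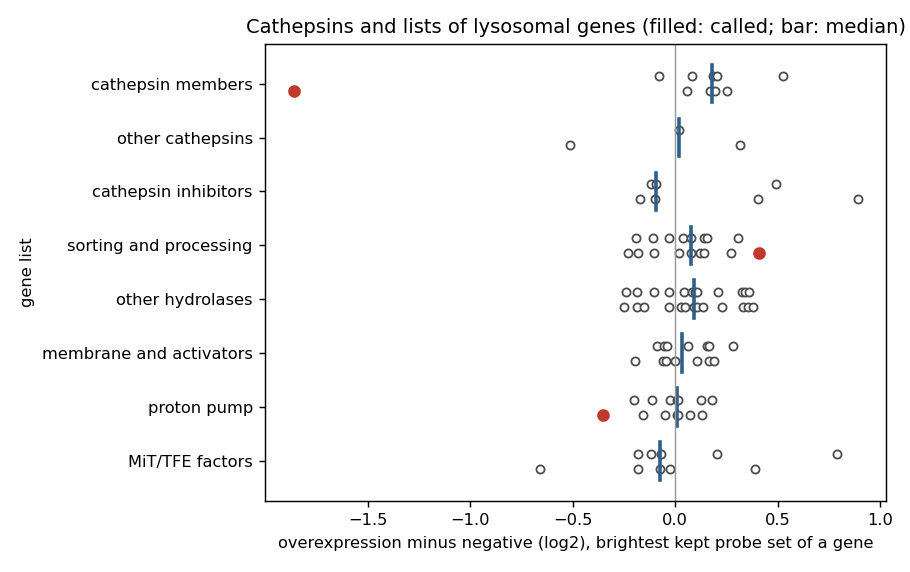
Difference between overexpression and negative arrays (log2) for each gene by its brightest kept probe set, for the 10 cathepsins and 7 lists of lysosomal genes. Filled points were called in limma, open points were not, and bars are list medians. The 3 filled points are CTSZ at -1.86, LGMN at 0.41 and ATP6V1D at -0.35.

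The genes whose 6 values were most like those of CTSZ were found by the root mean square distance, over the 6 arrays, between log2 signals taken relative to each gene's mean on the negative arrays. They were PIP5K1A at a distance of 0.28, TNKS2 at 0.33, FAM181B at 0.33, CXCL3 at 0.37 and LMNB1 at 0.38, out of 11895 genes. PIP5K1A, a phosphoinositide kinase, gave 456, 556 and 385 with CT45A1 and 1399, 1378 and 1261 without it, and its other 2 kept probe sets differed by -1.92 and -1.01. TNKS2, a tankyrase, gave 535, 344 and 575 against 2079, 2044 and 2386, and its other 2 kept probe sets differed by -0.34 and 0.03. CXCL3, a chemokine that draws neutrophils, gave 529, 505 and 491 against 1305, 1383 and 1209.8. In all 3 the groups were far apart, since the measure selects for that. The overexpression arrays lay close together at CXCL3 (SD 0.05) and were spread wider at PIP5K1A (SD 0.27) and TNKS2 (SD 0.40). FAM181B gave 51.8, 58.5 and 73.1 against 188, 136 and 220.5, and its overexpression values were under the array median. LMNB1, a lamin, gave 1097, 863 and 858 against 2036, 2711 and 2519. With 6 arrays the distance says only that these profiles were near each other.

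The neighbours of CTSZ on chromosome 20 did not show a fall of its size together. The 5 nearest tested protein-coding genes on each side, by their order in RefSeq (GRCh38.p14), spanned 14 places. None of the 10 was called in limma at its brightest probe set, against 3.83% of all genes. An unadjusted p under 0.05 was reached by 2, against 20.9% of all genes. The groups did not overlap at 6 of the 10, 3 higher and 3 lower, against 26.6% of all kept probe sets. That share covers every kept probe set of a gene and not only the brightest, so the 2 are not strictly alike. NELFCD, next to CTSZ on one side and a subunit of the negative elongation factor, gave 3678, 3808 and 3711 with CT45A1 and 3661, 3518 and 3627 without it, a difference of 0.05 (SE 0.06). GNAS, 2 places away and encoding the stimulatory G protein alpha subunit, differed by -0.07 (SE 0.05). Its other kept probe sets differed by -0.24 (211858_x_at) to 0.23 (228173_at), with the groups apart at both, and none was called. On the other side ATP5F1E, a subunit of the mitochondrial ATP synthase, differed by -0.16 (SE 0.09). PRELID3B, 3 places away, differed by -0.02 (SE 0.23) at its brightest probe set, and by -0.26 and -0.95 at its others, where the groups did not overlap. Of these the -0.95, at 229835_s_at, was called (limma adjusted p over all probe sets = 0.00950). STX16, a syntaxin of the Golgi, and NPEPL1, an aminopeptidase-like protein, differed by 0.20 (SE 0.07, limma adjusted p = 0.128) and -0.32 (SE 0.09, limma adjusted p = 0.0746). The other kept probe sets of STX16 differed by 0.63, 0.21 and 0.62, of which the 0.63, at 1558249_s_at, was called (limma adjusted p over all probe sets = 0.0156). APCDD1L had the largest difference of the 10, at -1.44 (SE 0.70), from dim signals that overlapped, and PHACTR3, SYCP2 and FAM217B differed by -0.40, 0.41 and -0.17.

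**Figure D5:**
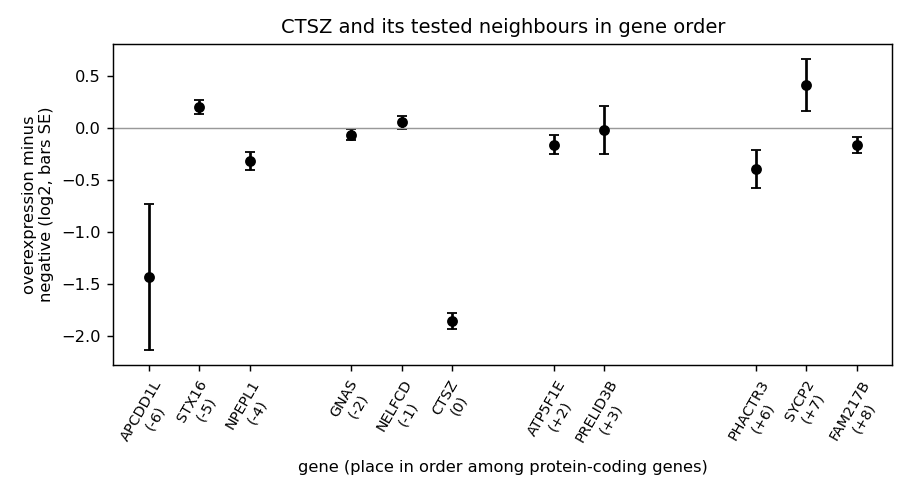
Difference between overexpression and negative arrays (log2) for CTSZ and its 10 nearest tested protein-coding genes, in their order along chromosome 20. Bars are limma's standard errors and the number under a gene is its place from CTSZ. CTSZ lies at -1.86 with an SE of 0.08, and APCDD1L is the only other gene under -1, with an SE of 0.70.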

How the data were processed

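Total RNA of 6 NCI-H292 samples, 3 per group by the sample titles, was measured on 3' expression arrays. The deposited values are intensities on a linear scale, and the submitters' processing notes name MAS5 and affy. Their versions are not given in the sources used here. On every array the 2% trimmed mean was 500.1. Signals were taken to log2 without an offset, and 62 control probe sets were left out. The platform's annotation gave gene names, which RefSeq symbols replaced where the Entrez identifier matched, for 41037 of 41091 probe sets with 1 symbol. No probe set named a cathepsin together with another gene. Probe sets above the array median on at least 3 arrays were fitted with limma 3.58.1 in R 4.3.3 (1 mean per group, eBayes with trend), with two-sided tests and Benjamini-Hochberg adjustment over 27618 probe sets. For lists, each gene was represented by its brightest kept probe set and adjusted over 11895 genes. The fit was tested on simulated arrays. The members and lists were chosen with earlier results of these data known. From each list up to 4 called genes were named, or else the 1 or 2 with the smallest p, and from the neighbours of CTSZ and from the profiles nearest to it a fixed number. M6PR, IGF2R, GNPTAB, TFEB, TFE3, MITF and CTSF were named outside this rule, after their values were seen. So were MBTPS1 and LAPTM4B, each for a call at a kept probe set other than its brightest. Detection calls were not used here. The number of arrays limits the precision.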

Additional observations from a re-analysis of the deposited data

How the results depend on the processing

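The CTSZ difference at 210042_s_at, a description, ran over the 16 alternatives it entered from -2.01 after centring on the array median to -1.81 with an offset of 32. With all _x_at and _s_at probe sets left out it had no value, and 9 probe sets of 6 cathepsins remained, with 0 called. The number of cathepsin probe sets called, 1 as reported, was 2 after quantile normalization, cyclic loess, the filter at the 75th percentile and with the replicate block, each adding CTSV. It was 2 after centring on the array median, adding CTSB at 227961_at, and 2 with the actin ratio covariate, adding CTSD. Leaving out single arrays gave 1 throughout. The number of pathway genes called, 2 as reported, was 9 after centring, all lower, and 10 with the actin ratio, 6 higher and 4 lower. It was 1 without a filter, 0 without the variance trend and 0 to 4 when single arrays were left out. The share of all genes called was not counted in these settings, so nothing is read from those numbers. Over all kept probe sets, 892 of 27618 as reported, the count was 2975 of 27618 after centring and 702 of 27618 with the actin ratio. It was 486 without a filter, 4 without the variance trend and 446 without _x_at and _s_at probe sets. Between 159 (without overexpression replicate 2) and 1171 (without negative replicate 3) were called when single arrays were left out. Over all kept probe sets the deviations of same-numbered arrays had correlations of -0.01, -0.01 and 0.10. Arrays of unlike number gave -0.10 to 0.11. These correlations cannot show whether same-numbered arrays shared a culture or a day. The replicate block gave 1189 probe sets in all, a CTSZ difference of -1.86 and 2 pathway genes. CTSZ, LGMN, ATP6V1D and the 5 genes nearest to CTSZ in profile, all called as reported, kept their direction in every alternative they entered. Of those called only in an alternative, CTSV, CSTB, GNAS and PRELID3B took the opposite sign in another. For CTSV this was the -0.05 with the actin ratio. Dim signals such as that of the second CTSZ probe set limit what can be said of them.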

Other observations

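Probe set 1563445_x_at is annotated to CTSLP8, a pseudogene related to CTSL, and was noted after its values were seen. It gave 131, 156 and 159 with CT45A1 and 108, 54.2 and 88.0 without it, a difference of 0.88 (SE 0.30, limma adjusted p = 0.136) that did not pass. The groups did not overlap, and 5 of 6 arrays were above their median. The suffix _x_at marks probes that can match several transcripts, so the signal could not be told apart from that of CTSL or its other relatives. CTSL itself differed by 0.20 at its only probe set.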
